A study of Mus musculus with 4 samples.

Results

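The type I interferon response genes described here are 33 mouse genes, listed by symbol and drawn from 55335 annotated genes, whose fragments were summed over all exon entries of each gene. All 33 symbols were found, 32 had a fragment in at least 1 library, and 26 passed the low-count filter that left 12434 genes for testing. By role they comprise 7 sensors of nucleic acid, 6 enzymes of the OAS family or the kinase Eif2ak2, 3 signalling proteins, 2 regulators and 15 effectors. The libraries are RNA-seq of cells labelled CD4+ T cells from the skin of mice aged 8 to 12 weeks, treated on the back with 5% imiquimod cream for 5 days. All mice received imiquimod, a Toll-like receptor 7 agonist, at 15 or 62.5 mg a day, and neither the amount for each mouse nor the strain is stated in the sources used here. The 2 control libraries came from Mettl3fl/fl mice, and the 2 knockout libraries from Mettl3fl/fl;Cd4-Cre mice, in which Cre recombinase is driven by the Cd4 promoter and floxed alleles are cut in developing T cells. Mettl3 encodes the catalytic subunit of the enzyme complex that writes N6-methyladenosine on RNA. The number of mice behind a library is likewise not stated. The cells came from dissociated dermis stained for CD4 and CD45, and their RNA was primed with oligo-dT and amplified by PCR before sequencing, so fragments are not independent molecules. The comparison asks how loss of Mettl3 from T cells bears on the interferon response genes of such preparations. Wherever a gene has a pair of values for a genotype, library 1 comes before library 2.

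Type I interferons bind a receptor of the chains Ifnar1 and Ifnar2, whose kinases activate transcription factors, Stat2 among them. With Irf9, Stat2 forms part of a complex that binds the interferon-stimulated response element in promoters, and the proteins made from its target genes sense foreign nucleic acid, block translation or replication, and feed back on the pathway. In imiquimod-treated skin, plasmacytoid dendritic cells, other myeloid cells and keratinocytes are known to make or answer type I interferon.

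Total counts lay between 3614418 and 4537006 fragments, so that 3 fragments, the limit that a count of 0 allows, correspond to 0.655 to 0.792 CPM. CPM is the number of fragments of a gene per 1000000 of the library, with TMM scaling between libraries. It is not corrected for gene length, so levels are compared within a gene and not between genes. The intervals and limits cover counting error only, as if fragments were independent, and no spread between libraries. Mettl3 had 195 and 49 fragments in the control libraries against 121 and 158 in the knockout libraries. Since the sources used here do not say which exons were floxed, these counts check nothing about the deletion. Control 2 stood apart, with no fragment for 32.7% of the tested genes against 1.78% to 6.92% in the other libraries. The 6 keratinocyte markers summed to 19910 CPM there, with 1109 CPM in the other control and 1888 and 791.0 CPM in the knockouts, and Krt5 alone had 5257 CPM against 241.8 to 541.6. The 6 fibroblast markers summed to 10201 and 2452 CPM for the control libraries and to 4697 and 5280 CPM for the knockout libraries. The part of these cell types in the differences of the members was not tested. The 10 T cell markers summed to 980.1 and 312.5 CPM in the control libraries against 276.0 and 141.6 CPM in the knockout libraries, with Cd4, Cd5 and Lck at 0 in control 2 and Cd5 and Lck at 0 in knockout 2. The 10 macrophage and monocyte markers summed to 14779, 5408, 26754 and 20615 CPM in the same order, with none at 0 in any library. Macrophage and monocyte markers thus had more fragments than T cell markers in all 4 libraries, though the lists differ in gene length and in how many exons could be counted. In such bulk samples, fewer cells of a type and less RNA per cell cannot be told apart.

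Promoter sequences of the genes that the results turn on show what the members share outside the counts. RefSeq (GRCm38.p6, the build of the counts) gave windows from 250 bases before to 50 after the start for 25 of the 33 genes. The motif searched was GAAA, then any 2 bases, then GAAA again, the core spacing of an interferon-stimulated response element. Both strands were searched, so that it also reads TTTC, any 2 bases and TTTC, and overlapping matches were counted. It was found for 15 of the 25 genes (60%), against 3.99% of 27025 genes with a window of the same length. The other 8 genes are Dhx58, Zbp1, Oas2, Usp18, Mx1, Mx2, Ifi27l2a and Rtp4. The windows held it for 4 of 5 sensors, 3 of 5 dsRNA enzymes, 1 of 3 signalling genes, 1 of 1 regulator and 6 of 11 effectors. The 7 sequences below are those of Isg15, the Ifit and Ifi200 family members with the widest differences between the genotypes, and Bst2, which differed little from control 1 in either knockout. They run 5′ to 3′ on the gene's strand, with matches to the motif in capitals.
Isg15 (chr4:156200769-156201068, minus strand): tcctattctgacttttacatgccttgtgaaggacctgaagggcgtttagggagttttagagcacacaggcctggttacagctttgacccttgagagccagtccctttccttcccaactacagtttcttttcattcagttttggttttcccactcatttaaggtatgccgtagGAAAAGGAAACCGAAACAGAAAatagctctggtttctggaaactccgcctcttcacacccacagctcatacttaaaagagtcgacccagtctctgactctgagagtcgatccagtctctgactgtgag
Ifit1 (chr19:34640639-34640938, plus strand): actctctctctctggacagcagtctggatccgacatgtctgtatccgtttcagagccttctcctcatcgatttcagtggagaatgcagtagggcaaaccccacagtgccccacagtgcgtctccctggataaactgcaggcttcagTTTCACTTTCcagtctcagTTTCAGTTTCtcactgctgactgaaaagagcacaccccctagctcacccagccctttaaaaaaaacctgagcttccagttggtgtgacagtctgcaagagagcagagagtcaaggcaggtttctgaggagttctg
Ifit3 (chr19:34583279-34583578, plus strand): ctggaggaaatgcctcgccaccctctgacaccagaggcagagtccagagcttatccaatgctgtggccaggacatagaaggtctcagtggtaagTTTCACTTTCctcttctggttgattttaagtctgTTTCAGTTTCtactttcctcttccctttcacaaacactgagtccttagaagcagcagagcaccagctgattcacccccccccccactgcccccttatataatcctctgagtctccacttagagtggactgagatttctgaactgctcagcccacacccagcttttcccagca
Ifit3b (chr19:34607707-34608006, plus strand): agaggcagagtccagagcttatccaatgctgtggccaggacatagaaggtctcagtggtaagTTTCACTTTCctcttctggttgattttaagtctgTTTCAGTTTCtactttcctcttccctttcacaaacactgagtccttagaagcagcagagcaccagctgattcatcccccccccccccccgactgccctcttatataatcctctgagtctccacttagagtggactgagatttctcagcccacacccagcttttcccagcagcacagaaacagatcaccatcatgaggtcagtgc
Ifi213 (chr1:173599223-173599522, minus strand): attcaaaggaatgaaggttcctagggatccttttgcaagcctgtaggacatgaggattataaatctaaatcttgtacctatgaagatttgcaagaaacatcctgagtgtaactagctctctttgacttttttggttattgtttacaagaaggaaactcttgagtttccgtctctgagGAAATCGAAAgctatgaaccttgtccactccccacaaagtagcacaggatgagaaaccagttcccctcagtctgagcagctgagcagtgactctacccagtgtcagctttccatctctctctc
Ifi209 (chr1:173630609-173630908, plus strand): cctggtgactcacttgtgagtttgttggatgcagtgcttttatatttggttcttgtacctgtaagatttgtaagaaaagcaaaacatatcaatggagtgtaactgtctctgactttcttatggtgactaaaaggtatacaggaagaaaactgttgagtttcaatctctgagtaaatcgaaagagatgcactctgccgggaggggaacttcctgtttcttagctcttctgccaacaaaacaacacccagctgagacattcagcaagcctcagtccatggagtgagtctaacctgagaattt
Bst2 (chr8:71537423-71537722, minus strand): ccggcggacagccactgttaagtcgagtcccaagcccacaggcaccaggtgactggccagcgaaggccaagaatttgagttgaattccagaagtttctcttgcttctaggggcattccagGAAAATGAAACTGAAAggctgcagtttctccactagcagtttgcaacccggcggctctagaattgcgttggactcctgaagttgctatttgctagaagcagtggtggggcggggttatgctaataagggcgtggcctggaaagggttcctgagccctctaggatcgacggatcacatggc
Isg15 held 3 overlapping matches, the first beginning 78 bases before the start. Ifit1, Ifit3 and Ifit3b each held the pair TTTCACTTTC and TTTCAGTTTC. The windows of Ifit3 and Ifit3b shared an unbroken run of 169 bases, and their transcripts come from near-identical copies. Bst2 held 2 overlapping matches, although its levels in the knockouts lay close to control 1. The window of Ifi209 held no match to these letters.

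None of the interferon response genes was called in the comparison of the genotypes. At an adjusted p under 0.05 (edgeR quasi-likelihood test, Benjamini-Hochberg over 12434 genes), 0 of 26 tested members and 0% of all tested genes were called, and the adjusted p of every member was 0.99975. At an unadjusted p under 0.05 there were 2 members, Ifi209 and Ifit3b, against 1.5% of all tested genes, and no member was called by DESeq2 or limma-voom. In the direction of the differences, 23 of 26 members had a positive log2 fold change, as had 56.9% of all tested genes. The median over the members was 1.98, and that over all tested genes was 0.20. For 17 members the log2 fold change was above 1, as for 24.7% of all tested genes, and for 0 members it was below -1, against 17.2%. Both knockouts lay above both controls for 14 members, against 19.5% of all tested genes, and below both for 0, against 11.2%. Most of these 14 members had no fragment in control 2, so that for them control 1 alone set the limit. These members passed the filter partly through their knockout libraries, so the counts and the median describe the list and support no call. With 2 libraries against 2, an exact permutation test of a single value cannot give a two-sided p below 0.333.

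**Figure D1:**
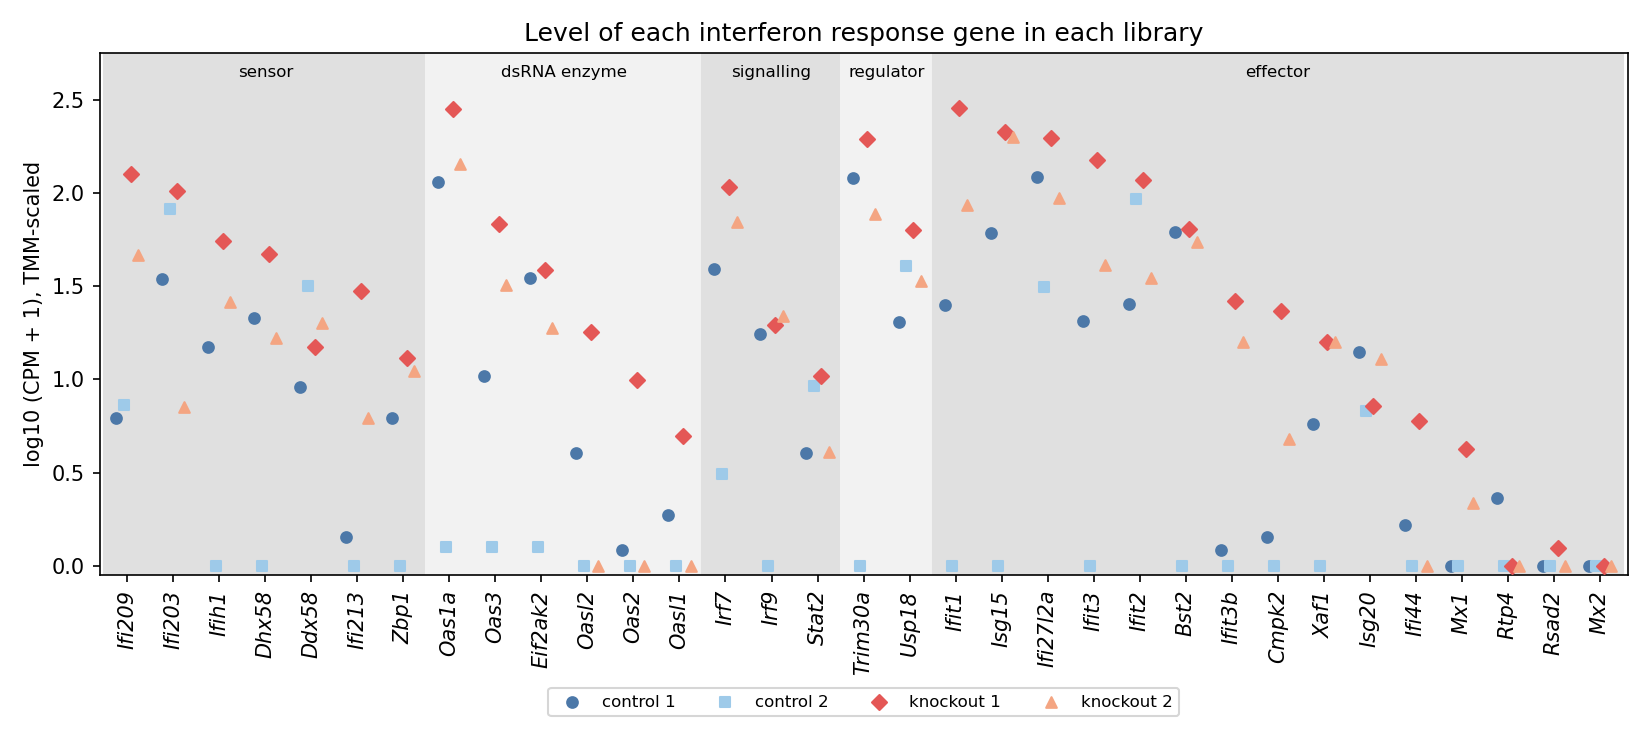
Level of each of the 33 genes in each library, as log10 of CPM + 1 (vertical axis), with genes ordered by role and, within a role, by their highest level. Knockout 1 is the highest library for 23 of the 26 tested genes, and control 2 lies at 0 for 21 of the 33.

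Among the sensors, Ifi213 and Ifi209 of the Ifi200 family had the highest log2 fold changes, while Ifi203 of that family was near 0. These proteins bind DNA or act on transcription, and their genes lie in a cluster on chromosome 1. Ifi209 (ENSMUSG00000043263, chr1:173630917-173647928) had 5.24 and 6.34 CPM in the control libraries against 125.5 and 45.6 CPM in the knockout libraries. Both knockouts lay far above both controls. The controls lay close together, with 24 fragments each, but in control 2 all 24 came from 1 exon, which held 5 in control 1. The log2 fold change of Ifi209 was 3.88 ± 1.13 (standard error, unadjusted p = 0.017 by edgeR). Ifi209 was 1 of 4 members whose estimate was at least 2 standard errors from 0, with Ifi213, Cmpk2 and Ifit3b. The share of all tested genes past this limit was not taken, so the count supports no call. Ifi213, Cmpk2 and Ifit3b had only 2, 2 and 1 fragments over both controls. Ifi213 was nearly absent from the controls, with 2 and 0 fragments, and had 116 and 22 in the knockout libraries, or 28.95 and 5.20 CPM. Its pooled ratio was 70.1, with an exact 95% counting interval of 19.0 to 584.7. Ifi203 had 33.4 and 80.8 CPM in the control libraries against 101.3 and 6.15 CPM in the knockout libraries. The highest and the lowest level of Ifi203 were thus both in knockout libraries, and its log2 fold change was -0.09 (standard error 1.43).

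Ifih1 (MDA5), which senses long double-stranded RNA, had 13.97 and 0 CPM in the control libraries against 53.9 and 25.1 CPM in the knockout libraries. Its groups did not overlap, and its log2 fold change was 2.49 (standard error 2.25). Dhx58 (LGP2), which modulates the other RIG-I-like receptors, had 20.3 and 0 CPM in the control libraries against 45.9 and 15.6 CPM in the knockout libraries. Knockout 2 lay below control 1 for Dhx58, so the groups overlapped. Ddx58 (RIG-I), which senses RNA with a 5′ triphosphate, was highest in control 2, at 30.9 CPM, with 8.08 CPM in the other control and 13.98 and 19.1 CPM in the knockouts. Zbp1, a sensor of Z-form nucleic acid that can start cell death, had 5.24 and 0 CPM in the control libraries against 11.98 and 10.2 CPM in the knockout libraries. Over the 7 sensors, all tested, the median log2 fold change was 2.06, from -0.23 for Ddx58 to 6.07 for Ifi213.

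The OAS enzymes, which on binding double-stranded RNA make the second messenger that activates RNase L, are represented first by Oas1a. It had 113.3 and 0.264 CPM in the control libraries against 279.8 and 142.1 CPM in the knockout libraries. The knockouts were 2.47 and 1.25 times the level of control 1, and control 2 had 1 fragment. Oas3 had 9.39 and 0.264 CPM in the control libraries against 67.4 and 31.2 CPM in the knockout libraries, and its log2 fold change was 3.34 (standard error 1.85). Eif2ak2 (PKR), a kinase that stops translation on sensing double-stranded RNA, had 33.8 and 0.264 CPM in the control libraries against 37.4 and 17.97 CPM in the knockout libraries. Its groups overlapped, with knockout 1 beside control 1 and knockout 2 below it. Oasl2, an OAS-like protein, had 14 fragments in control 1, 68 in knockout 1 and 0 in control 2 and knockout 2. Oas2 and Oasl1 did not pass the filter. Oas2 had 1 fragment in control 1 and 36 in knockout 1, Oasl1 had 4 and 16, and both were at 0 in the other libraries. All 4 tested genes of this group had positive estimates, against 56.9% of all tested genes, and their median log2 fold change was 2.17.

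The signalling genes had smaller differences. Irf7, the transcription factor that amplifies interferon production, had 37.98 and 2.11 CPM in the control libraries against 106.6 and 68.6 CPM in the knockout libraries. Both knockouts lay above both controls, with a log2 fold change of 2.12 and a standard error of 1.47. Irf9, the DNA-binding part of the complex with Stat2, had 16.6 and 0 CPM in the control libraries against 18.5 and 20.8 CPM in the knockout libraries. Its knockouts were 1.11 and 1.25 times control 1, so the distance of the genotypes rests on control 2. Stat2 had 3.06 and 8.18 CPM in the control libraries against 9.48 and 3.07 CPM in the knockout libraries, and its groups overlapped.

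The 2 regulators overlapped between the groups. Usp18, a protease that removes Isg15 from proteins and dampens the receptor, had 19.2 and 39.3 CPM in the control libraries against 62.6 and 32.6 CPM in the knockout libraries. Trim30a, which restrains Toll-like receptor signalling, had 119.4 and 0 CPM in the control libraries against 193.7 and 75.9 CPM in the knockout libraries. For both genes a control library lay above knockout 2, and their log2 fold changes were 0.70 and 1.17, with standard errors of 1.05 and 2.25.

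Among the effectors, the Ifit genes, whose proteins bind foreign RNA and hold back its translation, ranged from the widest difference of all members to almost none. Ifit1 (ENSMUSG00000034459, chr19:34640871-34650009) had 24.0 and 0 CPM in the control libraries against 283.5 and 84.6 CPM in the knockout libraries. The knockouts were 11.8 and 3.52 times control 1, and the log2 fold change was 3.93 (standard error 2.19). Ifit3 had 19.6 and 0 CPM in the control libraries against 149.0 and 39.95 CPM in the knockout libraries, which is 7.58 and 2.03 times control 1. Ifit3b, its near copy, had only 1 fragment in the controls, in library 1, against 102 and 63 in the knockout libraries. The pooled ratio of its knockouts to its controls was 167.7, with an exact 95% counting interval of 29.7 to 6662. Ifit2 was different, at 24.2 and 91.3 CPM in the control libraries against 116.8 and 33.8 CPM in the knockout libraries. Its knockout 1 was the highest library, but control 2 lay above knockout 2, and the log2 fold change was 0.38 (standard error 1.11).

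Isg15 (ENSMUSG00000035692, chr4:156199455-156200796), a ubiquitin-like protein that is attached to other proteins, was nearly level between the knockouts. It had 59.6 and 0 CPM in the control libraries against 211.7 and 199.5 CPM in the knockout libraries, or means of 29.8 ± 42.1 and 205.6 ± 8.58 CPM (SD, n = 2 libraries each). The knockouts were 3.55 and 3.35 times control 1, and the log2 fold change was 2.78 (standard error 2.16). Xaf1, a protein that promotes cell death, followed the same pattern, with 4.80 and 0 CPM in the control libraries against 14.98 and 14.89 CPM in the knockout libraries. Cmpk2, a nucleotide kinase of the mitochondrion, had 89 and 16 fragments in the knockout libraries against 2 and 0, which gave a pooled ratio of 53.3 (14.4 to 446.3).

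Other effectors did not separate the genotypes. Bst2 (tetherin), which holds budding virus at the cell surface, had 60.5 and 0 CPM in the control libraries against 63.1 and 53.4 CPM in the knockout libraries. The knockouts were 1.04 and 0.884 times control 1, so its log2 fold change of 0.95 (standard error 2.23) rests on control 2. Ifi27l2a, a small interferon-induced membrane protein, had 120.3 and 30.4 CPM in the control libraries against 196.4 and 93.4 CPM in the knockout libraries. Isg20, an exonuclease for single-stranded RNA, had 13.1 and 5.81 CPM in the control libraries against 6.24 and 11.8 CPM in the knockout libraries, and was the only tested member with its highest level in control 1.

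The remaining 5 effectors had too few fragments to test. Mx1, a GTPase that blocks virus replication, was at 0 in the controls. Knockout libraries had 13 and 5 fragments of Mx1, which is at least 3.06-fold higher when each control is set to 3 fragments. Ifi44 had 3 fragments in control 1, 20 in knockout 1 and 0 in the others. Its pooled ratio was 6.77 (2.01 to 35.6), and it rests on knockout 1 alone. Rtp4 had 6 fragments in control 1 and 0 elsewhere, Rsad2 (viperin) had 1 fragment, in knockout 1, and Mx2 had 0 in all 4 libraries. Over the 10 tested effectors the median log2 fold change was 2.7, against 2.06 for the sensors. The 2 roles overlapped in range, since effectors reached from -0.07 for Isg20 to 7.13 for Ifit3b.

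**Figure D2:**
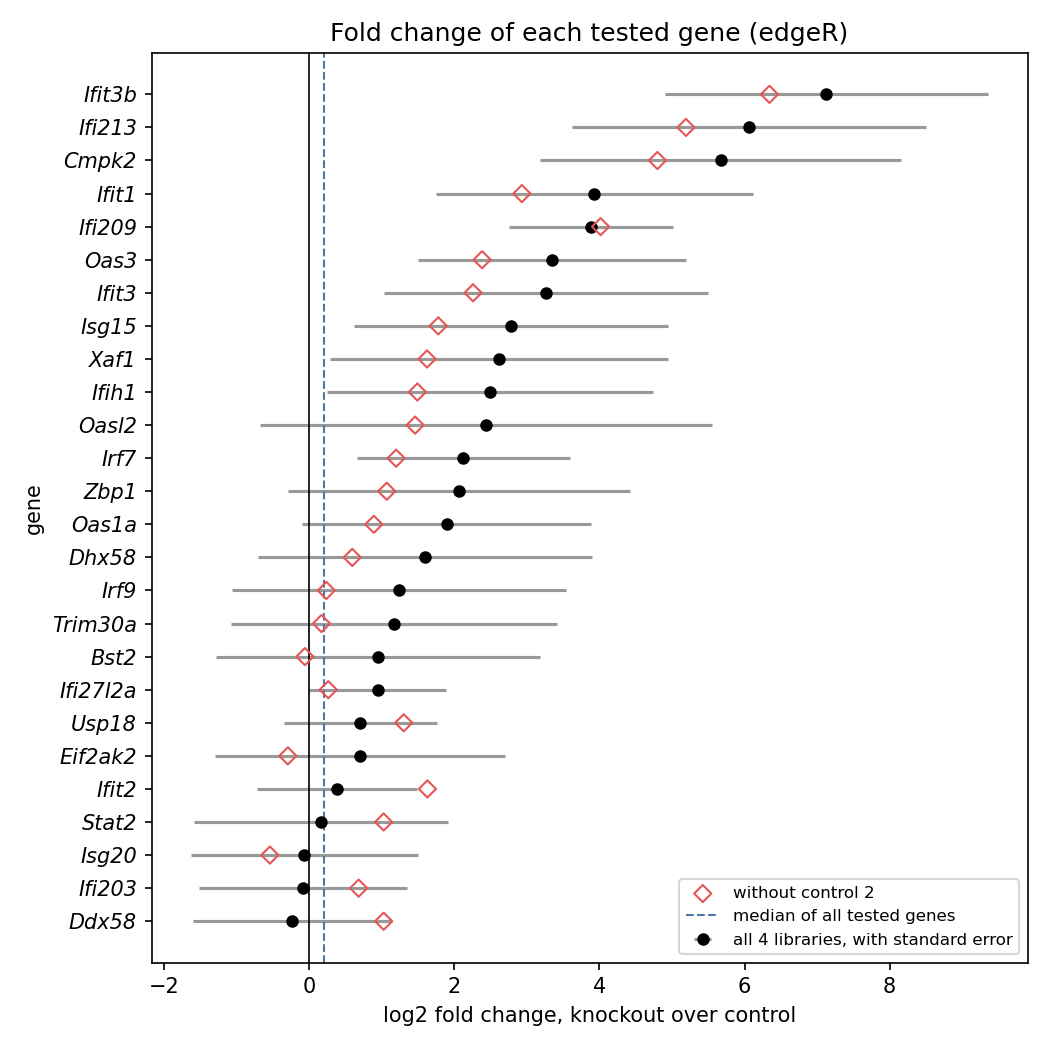
Log2 fold change of knockout over control for the 26 tested genes (horizontal axis, one gene per line), with the standard error of the edgeR fit as bars. Open diamonds give the estimate without control 2, which lies nearer to 0 for Ifit1 (2.93) and Isg15 (1.78), and at -0.06 for Bst2. The dashed line is the median of all tested genes, 0.20.

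The sums over roles placed knockout 1 first throughout, while the order of the other libraries varied. Effectors summed to 328.8 and 127.5 CPM in the control libraries against 1098 and 551.3 CPM in the knockout libraries. Sensors summed to 86.7, 118.0, 381.6 and 127.0 CPM in the same order, so that control 2 and knockout 2 differed little in this sum. In control 2, Ifi203 gave 80.8 CPM of it and Ddx58 gave 30.9 CPM, each from 1 exon. There 4 of the 7 sensors were at 0, and none was at 0 in knockout 2. The OAS group with Eif2ak2 summed to 160.7, 0.792, 414.6 and 191.2 CPM, the signalling genes to 57.6, 10.3, 134.5 and 92.4, and the regulators to 138.6, 39.3, 256.3 and 108.5. For the regulators control 1 lay above knockout 2, and for the other 4 roles it lay below.

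The libraries of 1 genotype also differed from each other. Knockout 1 lay above knockout 2 for 23 of the 26 tested members, with a median difference of -1.07 in log2(CPM + 1) for knockout 2 minus knockout 1, where all tested genes had a median of -0.06. Against control 1, the median difference was 1.52 for knockout 1 (25 of 26 members higher) and 0.77 for knockout 2 (18 of 26 higher), while all tested genes had medians of -0.0024 and -0.05. Control 2 lay below control 1 for 20 of 26 members, with a median difference of -2.59, and all tested genes had a median of -1.08. Of the tested members, 14 (53.8%) had no fragment in control 2, against 32.7% of all tested genes. Without control 2, 30 members were tested, the median log2 fold change was 1.38 and 27 members were positive. All genes then tested had a median of 0.05, and 52.3% were positive. Without control 1 the median was 7.78 over 30 tested members, with 1.72 over all genes then tested. Of the 26 members tested with all libraries, 14 were then compared with a library at 0.

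The exons behind these counts differed among members. Exon entries that share their coordinates with another entry hold no fragments, so a gene's count can come from a small part of it. None of the entries of Oas1a, Ifit1, Ifit3, Ifit3b and Isg15 share coordinates. Oas1a had fragments in all 7 of its exons, and nearly all of those of Ifit1, Ifit3 and Ifit3b lay in 1 protein-coding exon each. For Isg15, 99.2% came from an exon at chr4:156199455-156200066, with 271 and 0 fragments in the control libraries against 840 and 839 in the knockout libraries. For Ifi209, 87.4% came from a protein-coding exon at chr1:173645991-173647928, which held 18 and 0 fragments in the control libraries against 451 and 181 in the knockout libraries. The 24 fragments of Ifi209 in control 2 all lay in another exon, at chr1:173630917-173631155, where the other libraries had 5, 49 and 12. Control 2 had none in the exon that held most fragments of the other libraries.

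For 7 members, more than 50% of the fragments lay in exons annotated as part of a retained-intron transcript (GENCODE M21), against 8.30% of all fragments. These were the 3 signalling genes Irf7 (99.7%), Irf9 (89.1%) and Stat2 (100%), along with Xaf1 (98.6%), Oasl2 (98.8%), Oas2 (86.5%) and Ifi203 (73.4%). Since exon entries with shared coordinates held no fragments, such percentages do not give the part of a gene's RNA that retains introns. The counts of these genes can move with intron retention as well as with the level of the gene, and without strand they can include RNA of the opposite strand. In Irf7 a single such exon, chr7:141263184-141266423, held 174, 8, 424 and 290 fragments in control 1, control 2, knockout 1 and knockout 2. In Ifi203, all 306 fragments of control 2 lay in the retained-intron exon chr1:173933205-173935177. Its protein-coding exon chr1:173928275-173929516 held 113, 0, 115 and 7. All fragments of Ddx58 lay in exons annotated to transcripts without a coding sequence. Its 117 fragments in control 2 came from 1 such exon, chr4:40227059-40228113, where control 1 and knockout 2 had 0 and knockout 1 had 16. The high values of control 2 for Ifi203 and Ddx58 thus came from 1 exon each, outside the protein-coding transcripts. Without retained-intron exons, 21 members remained for testing, with a median log2 fold change of 1.94. Of the genes tested with every exon, both knockouts then lay above both controls for 11 of 26 members and for 16.8% of all genes. Fragments that map to several places were not counted, so the near-identical genes of the Ifit, Ifi200, Oas1 and Trim30 families are uncertain.

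**Figure D3:**
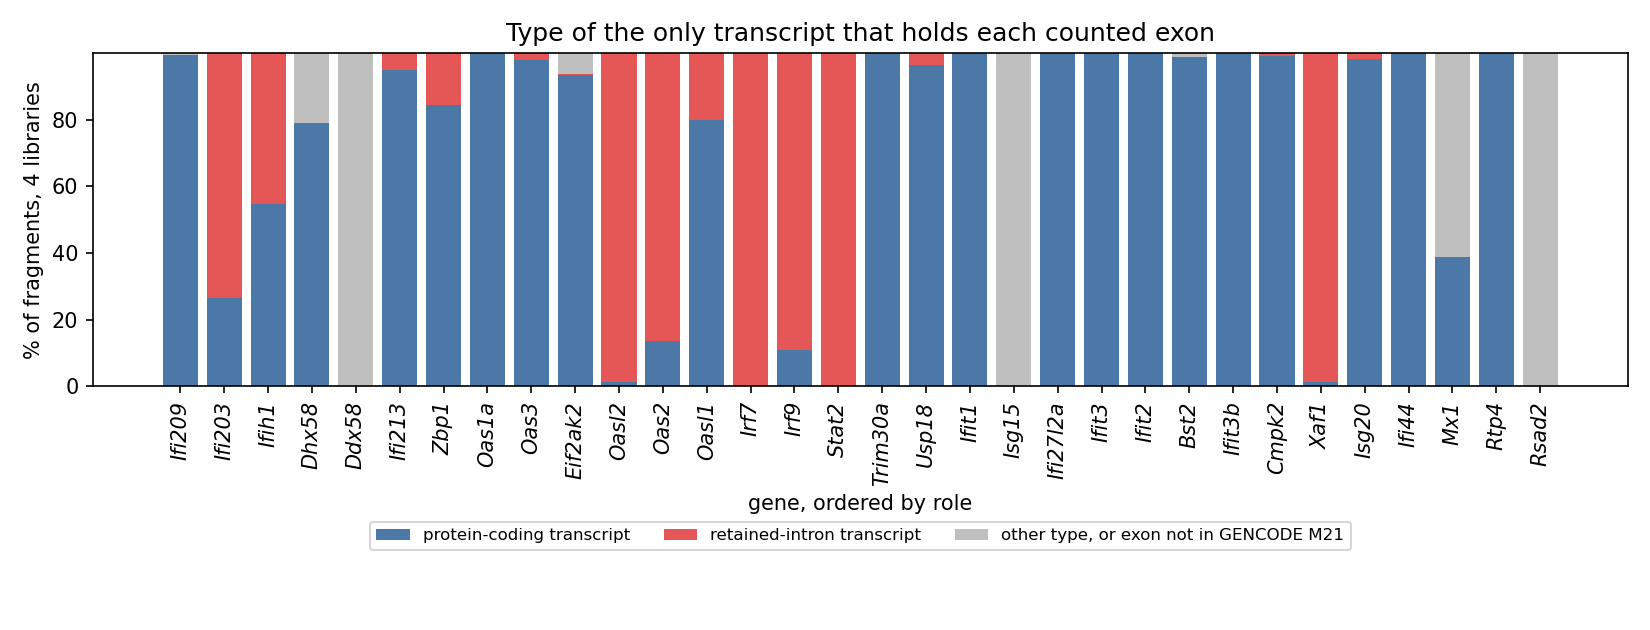
Share of each gene's fragments over the 4 libraries (vertical axis, percent) by the type of transcript that holds the exon in GENCODE M21. The signalling genes and Xaf1, Oasl2, Oas2 and Ifi203 are mostly in retained-intron exons, and the Ifit genes in protein-coding exons. The exons of Isg15 have other coordinates in M21 and fall in the grey class.

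Upstream of the members, Ifnb1, the interferon beta gene, had 20 and 0 fragments in the control libraries against 118 and 63 in the knockout libraries. Both knockouts lay above both controls, with a log2 fold change of 3.32 and a standard error of 2.30 (adjusted p = 0.99975 by edgeR). Of 20 interferon genes listed as ligands, 15 had no counted fragment in any library, including most interferon alpha genes. Since fragments that map to several places were not counted, a count of 0 for genes with close copies does not show absence. Ifna1 had 56 fragments in knockout 2 and 0 in the others, and Ifna13, Ifnk and Ifnz had 2, 2 and 3 fragments in knockout 1 and 0 elsewhere. The only ligand with a counted fragment in a control was Ifnb1.

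Ifnar1 had 166.6 and 49.4 CPM in the control libraries against 336.5 and 107.3 CPM in the knockout libraries, and its groups overlapped. Ifnar2 had 33.4, 34.1, 56.4 and 55.3 CPM in the same order, with both knockouts above both controls and a log2 fold change of 0.73 (standard error 0.91). Socs3, a feedback inhibitor of cytokine receptors and the gene of this list with the highest CPM, had 2389, 275.3, 4233 and 3484 CPM. Of 7 tested receptor and JAK-STAT genes, 5 had a positive log2 fold change, against 56.9% of all tested genes, and 0 passed the test.

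Tlr7, the receptor for imiquimod, had 8 and 10 fragments in the knockouts and 0 in both controls, too few to test. Irf8, a transcription factor of myeloid cells and the upstream gene with the highest CPM, had 194.5 and 53.1 CPM in the control libraries against 308.0 and 191.96 CPM in the knockout libraries. Of the 11 tested upstream genes, 8 had a positive log2 fold change (median 0.51), against 56.9% of all tested genes, and 0 passed the test.

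Further interferon-stimulated genes outside the list had a lower median. Of 28 tested, 24 had estimates above 0 (median 0.97), against 56.9% of all tested genes. Both knockouts lay above both controls for 11, against 19.5%. Ifitm3, a membrane protein that blocks virus entry and the gene with the highest CPM here, was nearly level at 1574 and 1790 CPM in the control libraries against 1788 and 1876 CPM in the knockout libraries. A list of interferon gamma itself, its receptor chains and genes known mainly as its targets had a median of 1.01 over 12 tested. Of these, 9 were positive and 5 had both knockouts above both controls, beside the same 56.9% and 19.5% of all tested genes. Gbp7, a GTPase and the gene with the highest CPM of this list, was highest in control 2, at 234.9 CPM, with 70.3 CPM in the other control and 127.0 and 109.4 CPM in the knockouts. Irf1, which responds to both kinds of interferon, had 24, 0, 8 and 5 fragments. None of these genes passed the test.

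Myeloid markers had positive estimates beside the interferon response genes, and none passed the test. Estimates were above 0 for all 10 markers of macrophages and monocytes (median log2 fold change 1.67), against 56.9% of all tested genes. Both knockouts lay above both controls for 7 of them, against 19.5% of all tested genes. The 4 tested neutrophil markers had both knockouts above both controls, against the same 19.5%. All 7 listed summed to 467.8, 320.4, 1850 and 1230 CPM in control 1, control 2, knockout 1 and knockout 2. The 10 T cell markers all had a negative log2 fold change, with a median of -1.31, where 56.9% of all tested genes were positive. Both knockouts lay below both controls for 5 of them, against 11.2% of all tested genes. Of 5 markers of plasmacytoid dendritic cells, Siglech had 0 fragments in all 4 libraries, and Bst2 and Irf8 are described above. Tcf4 had 422 and 551 fragments in the control libraries against 328 and 131 in the knockout libraries, and Ccr9 had 23, 0, 5 and 20. The list summed to 352.1, 198.5, 454.3 and 281.1 CPM in the same order. Of its 4 tested markers, 0 had both knockouts above both controls, against 19.5% of all tested genes. For 1, Tcf4, both knockouts lay below both controls, against 11.2%. The members summed to 772.3 and 295.9 CPM in the control libraries against 2285 and 1070 CPM in the knockout libraries.

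Per 100 CPM of macrophage and monocyte markers, the members had 5.23 and 5.47 CPM in the control libraries against 8.54 and 5.19 CPM in the knockout libraries. Only knockout 1 lay apart on this scale, and the groups overlapped. Part of the 295.9 CPM of control 2 lay in 1 exon each of Ifi203 (80.8 CPM) and Ddx58 (30.9 CPM), outside the protein-coding transcripts. No ratio was taken without these genes. Without Lyz2, the marker with the highest CPM, the values were 14.3, 19.3, 18.4 and 10.9, and the mean of the knockouts was 0.873 times that of the controls, in place of 1.28 times. Per 100 CPM of dendritic and Langerhans cell markers the members had 120.9, 162.7, 260.5 and 319.1 CPM, and there both knockouts lay above both controls. So they did per 100 CPM of T cell markers (78.8, 94.7, 827.8 and 755.9) and of keratinocyte markers (69.7, 1.49, 121.0 and 135.3). The T cell marker sum was itself lower in both knockouts than in both controls. Some single members had both knockouts above both controls on the macrophage and monocyte scale and on the dendritic and Langerhans scale. With each gene divided by the summed macrophage and monocyte markers, both knockouts lay above both controls for 12 members, against 6.94% of all tested genes. They lay below both controls for 1 member, against 35.3%. Without Lyz2, both knockouts lay below both controls for 2 members, against 45.7%. They lay above for 9, against 4.55%, namely Cmpk2, Ifi209, Ifi213, Ifit1, Ifit3, Ifit3b, Isg15, Oas3 and Xaf1. Divided by the dendritic and Langerhans cell markers, both knockouts lay above for 16, against 13.6%, and below for 0, against 7.99%. Of the 9 named genes, Cmpk2, Ifi213, Ifit1, Ifit3, Ifit3b, Isg15 and Xaf1 had no fragment in control 2. No division could move these against that library. The members passed the filter partly through their knockout libraries, so these counts describe the list and support no call. Which cells supplied the RNA of the members was not tested.

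**Figure D4:**
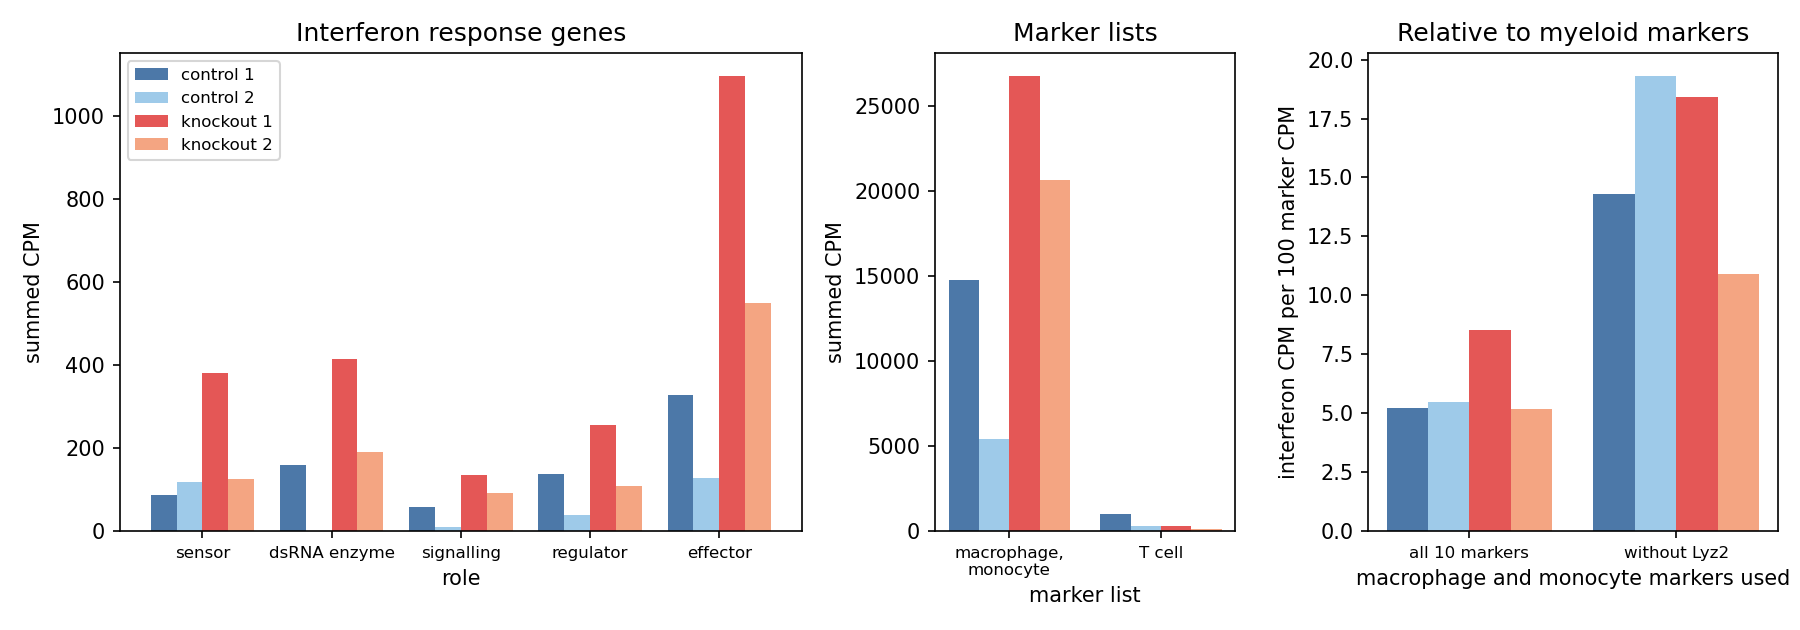
Summed CPM of the 33 genes by role (left), of 2 marker lists (middle), and summed interferon response CPM per 100 CPM of macrophage and monocyte markers, with and without Lyz2 (right), as bars for each library. Knockout 1 has the highest sum for every role. On the right, with all 10 markers, knockout 2 (5.19) lies beside the controls (5.23 and 5.47), and without Lyz2 control 2 (19.3) is highest.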

How the data were processed

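RNA of cells labelled CD4+ T cells from imiquimod-treated mouse skin was sequenced in 4 libraries. The authors' deposited tables hold raw fragment counts per exon entry. They were made with featureCounts 2.0.1 per exon, from read pairs and without strand, on GENCODE M23 (GRCm38), per the file headers. Per the submitters' processing notes, Trim Galore 0.6.7 and STAR 2.7.9a were used. Of 841606 exon entries, 64.8% share their coordinates with another and hold 0 fragments, so only other exon entries contribute. Transcript types came from GENCODE M21, and symbols matched 55154 of 55335 genes.

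Exon entries were summed per gene. Genotypes were compared with edgeR 4.0.16 (R 4.3.3): filterByExpr at a minimum count of 10, TMM, quasi-likelihood test, two-sided, no covariate, Benjamini-Hochberg over 12434 genes at 0.05. Standard errors are the log2 fold change divided by the square root of F. Alternatives were DESeq2 1.42.0, limma 3.58.1 (voom), other scaling factors and filters, a covariate of Y-linked transcripts, retained-intron exons left out, and each library left out. Ratios have exact conditional binomial intervals at 95%. The code was tested on simulated data. The labels number no replicates and name no mouse, so p-values measure only the spread between these libraries. All 33 members are reported, and other genes only from set lists. The members, roles and lists were chosen with earlier results of these data known. The markers without Lyz2 and the counts of groups apart with a library or retained introns left out were added after seeing the data. Sequences are from RefSeq. A gene of the receptor list is not reported here.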

Additional observations from a re-analysis of the deposited data

How the results depend on the processing

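Over 12 alternative settings, 0 members were called in each. The lowest adjusted p of a member was 0.237 with DESeq2, 0.269 with edgeR without a low-count filter and 0.054 without control 1. Over all genes, DESeq2 called 17 and edgeR without a low-count filter 27, against 0, and leaving out 1 library gave 0 to 4. The members' median log2 fold change was 3.78 with limma-voom, against 1.98, and 1.31 to 7.78 with 1 library left out, lowest without knockout 1 and highest without control 1. With 1 library left out, 14 to 24 of 26 members had all knockouts above all controls: 20 without control 1 (54.5% of all tested genes), 18 without control 2 (28.8%), 14 without knockout 1 (33.4%) and 24 without knockout 2 (36.5%). The sign turned for 8 members, and 18 kept it in every setting that gave a value. The size was less stable: leaving out 1 library moved Trim30a from 0.17 to 12.10, Irf9 from 0.23 to 9.32, Ifih1 from 1.49 to 10.33 and Irf7 from 1.20 to 5.42, the high ends without control 1 and the low ends without control 2. Ifi209 (3.02 to 4.51) and Ifit3b (6.34 to 9.36) had the narrowest ranges by ratio among those that kept their sign. Ddx58 was at 0.14 with limma-voom and 0.0021 with the Y-linked covariate, Oasl2 at -1.07 with that covariate, Isg20 at 0.013 and Ifi203 at 0.067 without a low-count filter, and Ifi203 at 0.33 without retained-intron exons. With 1 library left out the ranges were -0.83 to 1.03 for Ddx58, -3.14 to 0.92 for Ifi203, -0.55 to 0.70 for Isg20, -0.79 to 1.02 for Stat2, -0.69 to 1.63 for Ifit2, -0.30 to 6.62 for Eif2ak2 and -0.061 to 10.89 for Bst2, the low end without control 2. The cause was not tested. Each such fit assumes that the lone library of a genotype varies like the other group. No paired analysis was possible because the labels number no replicates. Members under about 3 fragments in a library cannot be told from 0 at this depth.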
